A study of Sus scrofa with 48 samples.

Results

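Chemokines and their receptors were examined in whole blood RNA of 48 pigs. Members were the array spots whose gene name in the scanner files begins with the symbol stem of a chemokine (CCL, CXCL, CX3CL or XCL) or of a chemokine receptor (CCR, CXCR, CX3CR or XCR) followed by a digit. The rule found 75 spots of 41 genes, 25 ligands and 16 receptors, among the 60306 non-control spots and 14606 gene names of an array. The authors retained 52 of these spots, which cover 35 genes (19 ligands and all 16 receptors), among the 37113 spots of their normalized table. All pigs were castrated French Large White males aged 132 days, from the eighth generation of a divergent selection on residual feed intake (RFI), the feed eaten beyond the predicted needs for growth and maintenance. A group of 24 pigs came from the low RFI line (RFIneg, more efficient) and 24 from the high RFI line (RFIpl). Within each line 12 pigs were fed freely a diet rich in fat and fiber (HF) and 12 a diet poor in both (LF). The pigs of each line share selected ancestors, so that a line difference describes this pair of lines. The diets were matched for protein and energy, and blood was taken at slaughter after a morning meal.

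Chemokines are small secreted proteins that guide leukocytes along concentration gradients, and they act through receptors that couple to G proteins on the surface of the guided cell. Inflammatory receptors such as CXCR1, CXCR2 and CCR1 bring neutrophils and monocytes to injured tissue, whereas CCR7, CCR9, CCR10 and CCR4 direct lymphocytes to lymph nodes, gut and skin. Blood cells carry many of the receptors, while a large part of the ligands is made by tissue cells.

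The spots are DNA probes of 60 bases, and the sequences below are those of the probes on which the results turn. They are given 5′ to 3′ as the scanner files list them, in part (30 bases) or whole (60 bases). The pair of brightest CCR1 probes (A_72_P232432 and A_72_P570289) share a run of 28 bases. The first base shown differs, G11A counted from the 5′ end of the first probe, and the second probe has 1 additional base after the shared run. Capitals mark these differences.
CCR1 (A_72_P232432): Gttgcaggttgggatcactttcccaagaca
CCR1 (A_72_P570289): AttgcaggttgggatcactttcccaagacC
The other probes of members with a line difference, or just short of one, are the following.
CXCR2 (A_72_P214947): tctaaggctctcttaagctatgagtggccc
CXCR1 (O3333): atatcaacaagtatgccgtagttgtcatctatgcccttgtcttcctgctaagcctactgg
CCR10 (A_72_P185246): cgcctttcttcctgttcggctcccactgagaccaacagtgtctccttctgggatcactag
CCR4 (O4738): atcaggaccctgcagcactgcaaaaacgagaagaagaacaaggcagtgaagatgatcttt
CCR3 (A_72_P232577): aagacattaaaatatatacacaatggtgga
CCL21 (O12732): tcttctttgtaaatatgacatatacctaac
CCR9 (A_72_P232912): aagtaataagaaataacagcttccctaccc
XCL1 (A_72_P248952): ccctttaaagttcatggactaattacattc

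A probe can read a transcript only from 1 strand, and for 3 member spots another probe of the array carries the opposite strand (shared runs of at least 20 bases were searched). The spot named CCL14 (O4345) holds the reverse complement of 59 bases of a probe named LOC100516223. The capitals mark the bases that pair.
CCL14 (O4345): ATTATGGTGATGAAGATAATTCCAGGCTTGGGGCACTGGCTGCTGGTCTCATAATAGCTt
LOC100516223 (A_72_P254852): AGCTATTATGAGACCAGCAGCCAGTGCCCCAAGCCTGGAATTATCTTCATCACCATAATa
Over the 48 pigs these spots were correlated at r = -0.14 once group means were subtracted. The median signal was 4011.5 on the CCL14 spot and 179 on the other, and which strand is transcribed was not tested. The CCL14 values are given under the listed name. Similarly, a CCL8 spot that was not retained (O12187) is the reverse complement of 52 bases of the retained CCL8 spot A_72_P441594.
CCL8 (O12187): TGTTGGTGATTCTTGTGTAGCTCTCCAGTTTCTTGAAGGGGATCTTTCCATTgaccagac
CCL8 (A_72_P441594): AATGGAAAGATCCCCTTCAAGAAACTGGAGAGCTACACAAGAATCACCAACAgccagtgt
The first was well above background on 8 arrays with a median signal of 47, and the second had a median signal of 134.25. The CXCR3 probe has all its 60 bases in common with a probe named LOC100524123, so that these names cannot be told apart on the array. The CCL17 probe shares 48 bases with a probe named LOC780408, and their r over the pigs was 0.95.

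Identical probes gave a measure of the error between spots of the same array, which leaves out the errors of labelling, hybridization and slide. The sequence of the XCL1 probe shown above is on the array also as A_72_P444913, and the line difference was 0.50 ± 0.16 (SE) on the first spot and 0.49 ± 0.16 on the second. The SD of the difference between these spots over the 48 pigs was 0.14 on the log2 scale. For the identical pair of CXCR6 spots it was also 0.14. XCL1 had an SD of 0.63 among the 24 low RFI pigs, a spread that also holds the errors of labelling, hybridization and slide.

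The arrays were on 6 slides of 8 arrays with 2 arrays of each group on each slide, and the slides were scanned on 3 days. The median signal over local background was 5.91 to 16 per array, and no non-control reading was saturated. Among the retained members, 47 of 52 spots were well above background on all 48 arrays. A value below is a log2 signal with the array's own median set to 0, so that it ranks pigs for 1 gene and does not rank genes. A line difference is low RFI minus high RFI, and a negative one means underexpression in low RFI pigs. Where a gene has several spots, its value is their mean.

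Low RFI pigs underexpressed CCR1 and CXCR2 and overexpressed CCR10, CCR3, CCR4 and CCL21, compared with high RFI pigs. With limma's moderated test and an adjusted P-value under 0.05, 6 of 35 member genes differed between the lines, or 17.1%, against a background of 3.29% (360 of 10946 genes). These were 4 genes that were higher in low RFI pigs (background 1.65%) and 2 that were lower (background 1.64%). By spot, 7 of 52 differed (background 2.77%), because CCR1 has a pair of spots among them. By the study's looser criterion, an unadjusted P under 0.01 with a fold change above 1.1, 11 spots (background 5.78%) and 8 genes (background 6.19%) differed, the added genes being CCR9 and XCL1. The receptors made up 5 of the 6 genes. The median line difference of the 35 genes was 0.01, and it was 0.03 over all genes tested. Whole blood is a mixture, so that fewer cells of a type and less RNA per cell cannot be told apart in any of these values.

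**Figure D1:**
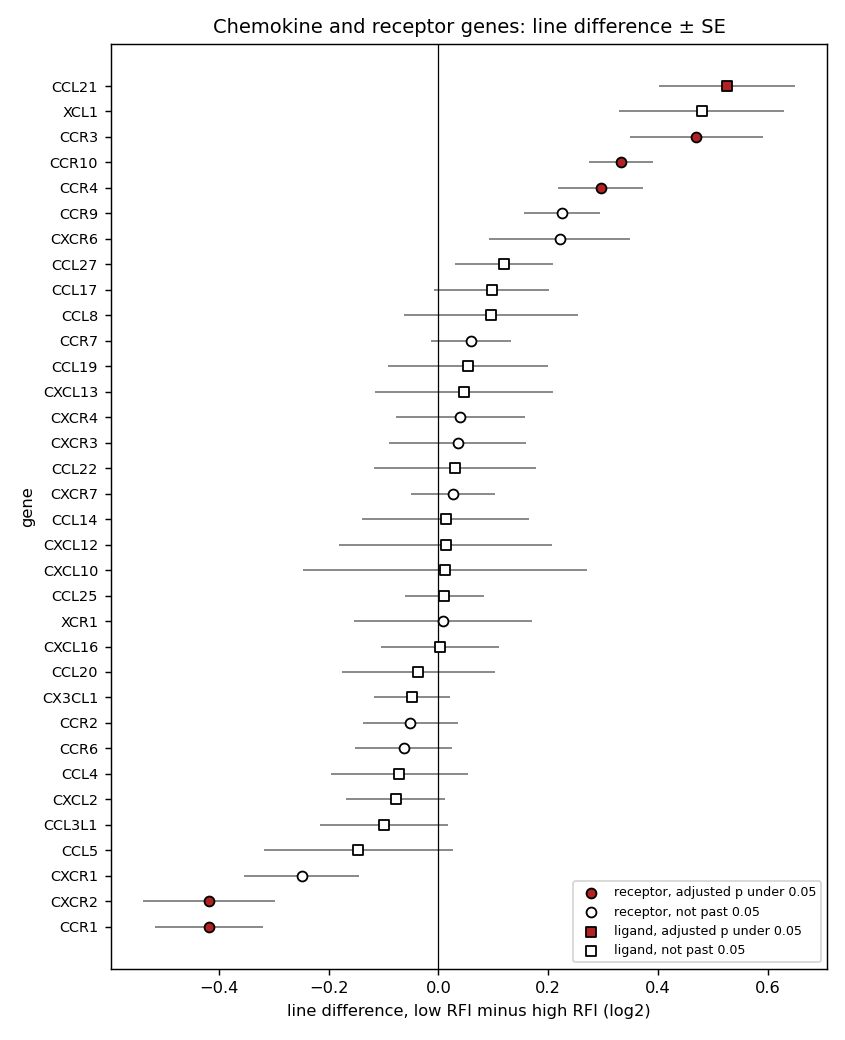
Line difference (low RFI minus high RFI, log2, x axis) of 34 member genes with a retained spot (y axis), as the estimate of the linear model with its SE over 48 pigs; circles are receptors, squares are ligands and filled symbols have an adjusted P-value under 0.05. CCR1 and CXCR2 stand at the lower end at -0.42, CCL21 at the upper end at 0.53.

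CCR1 is a receptor for CCL3 and CCL5 on monocytes and neutrophils. Among the 24 low RFI pigs the mean of its 3 spots ranged from 1.15 to 2.39 (median 1.67). Among the 24 high RFI pigs it ranged from 1.61 to 2.76 (median 2.23). Thus 20 of 24 low RFI pigs lay below the high RFI median, although the ranges overlapped. The line difference was -0.42 ± 0.10 (SE), a 1.34-fold underexpression (limma, adjusted P = 0.0086), and low RFI pigs were lower on each of the 6 slides, by -0.98 to -0.13.

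The 3 CCR1 spots moved in 1 direction with different sizes. The difference was -0.67 ± 0.15 on A_72_P570289 (adjusted P = 0.0040) and -0.43 ± 0.12 on A_72_P232432 (adjusted P = 0.043), whose probes share the run shown above. An unnamed spot with all 60 bases of A_72_P232432, which is not counted as a member, gave -0.45 ± 0.12 (adjusted P = 0.035). The third spot (O4720) was well above background on 30 of 48 arrays and had a difference of -0.15 ± 0.07 (adjusted P = 0.36). Its correlation with the other CCR1 spots over the pigs was 0.39 and 0.30, compared with 0.85 between the brighter ones. In high RFI pigs it was well above background on 19 of 24 arrays, and in low RFI pigs on 11.

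CXCR2 and CXCR1 are the neutrophil receptors for CXCL8. CXCR2 ranged from 5.53 to 7.11 (median 6.34) in low RFI pigs, and from 5.97 to 7.52 (median 6.77) in high RFI pigs. Again 20 of 24 low RFI pigs lay below the high RFI median. The difference was -0.42 ± 0.12 (adjusted P = 0.039), with low RFI lower on 5 of 6 slides. Tested over all non-control spots, the same difference had an adjusted P of 0.050094, which misses the threshold, and by the analysis of variance over spots it was 0.056. For CXCR1 the values were 0.63 to 2.31 (median 1.60) in low RFI pigs and 1.23 to 2.57 (median 1.87) in high RFI pigs. This difference of -0.25 ± 0.10 did not pass the test (adjusted P = 0.24).

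Cell markers were read beside the lower neutrophil receptors. Of the 5 measured genes of an 8-gene neutrophil list, 4 were lower in low RFI pigs and 1 of them passed the test. Over all 10946 genes 36.1% were lower and 63.9% higher in low RFI pigs, 1.64% being lower and 1.65% higher past the test. S100A9, a calcium-binding protein of neutrophils, had -0.46 ± 0.22 (adjusted P = 0.35). The mean of the list was 1.82 to 4.54 in low RFI pigs and 2.30 to 4.81 in high RFI pigs. Among 7 monocyte genes, 5 were lower and 2, CSF1R and CD68, were not, with differences of 0.09 and 0.0062. The median of the list was -0.08, and CD14, the endotoxin co-receptor, was the 1 gene to pass the test (-0.47 ± 0.13, adjusted P = 0.037). The monocyte mean was 0.34 to 1.39 in low RFI pigs and 0.56 to 1.60 in high RFI pigs. Over the 48 pigs with group means subtracted, CXCR2 followed the neutrophil mean at r = 0.56 (rho = 0.52, permutation P = 7e-05, adjusted over 128 pairs 0.0013). Without the 2 pigs farthest from the median of the neutrophil mean r was 0.51, and within slides it ranged from -0.42 to 0.78. CCR1 followed the monocyte mean at r = 0.51 (rho = 0.58, adjusted permutation P = 0.0036, r = 0.51 without 2 pigs, 0.26 to 0.76 within slides). Each receptor also followed the other list. CCR1 followed the neutrophil mean at r = 0.52 (rho = 0.48, adjusted permutation P = 0.0038, r = 0.52 without 2 pigs, -0.17 to 0.84 within slides). CXCR2 followed the monocyte mean at r = 0.51 (rho = 0.56, adjusted permutation P = 0.0031, r = 0.56 without 2 pigs, -0.018 to 0.84 within slides). The part of cell composition in the line difference was not tested.

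CCR10 had the lowest P-value of the members. It is the receptor for CCL27 and CCL28 on lymphocytes bound for skin and mucosa, and on plasma cells. It ranged from -0.64 to 0.29 (median -0.12) in low RFI pigs, compared with -0.83 to -0.11 (median -0.47) in high RFI pigs. In 23 of 24 low RFI pigs it was above the high RFI median, and 10 low RFI pigs were outside the range of the other line. The difference was 0.33 ± 0.06 (1.26-fold, adjusted P = 0.00023), and it was 0.14 to 0.51 within the 6 slides. Only 1 spot carried it, since another CCR10 spot (O13059) was not retained. The differences of CXCR2, CCR4, CCR3 and CCL21 likewise rest on 1 retained spot each.

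CCR4 is a receptor for CCL17 and CCL22 on Th2 and regulatory T cells. Its values were -1.12 to 0.07 (median -0.45) in low RFI pigs and -1.15 to -0.16 (median -0.76) in high RFI pigs. The difference of 0.30 ± 0.08 (adjusted P = 0.019) was present on all 6 slides, at 0.11 to 0.50. Its ligands CCL17 and CCL22 had line differences of 0.10 ± 0.10 (adjusted P = 0.85) and 0.03 ± 0.15 (adjusted P = 0.97).

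CCR3, a receptor for eotaxins on eosinophils and basophils, was 0.69 to 2.30 (median 1.53) in low RFI pigs. It was 0.30 to 1.93 (median 1.06) in high RFI pigs. The difference was 0.47 ± 0.12 (1.39-fold, adjusted P = 0.018), with 21 of 24 low RFI pigs above the high RFI median and 5 of 6 slides in that direction. Only 2 of 9 listed eosinophil and basophil markers were measured, MS4A2 (-0.07 ± 0.08) and HDC (0.02 ± 0.13), and neither passed the test. The correlation of CCR3 with their mean was 0.25 (adjusted permutation P = 0.26). The defining eosinophil proteins of the list were among the markers that had no retained spot by name.

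CCL21 was the only ligand that passed the test. It is a CCR7 ligand of lymphatic vessels and lymph nodes. It ranged from -2.30 to -0.43 (median -1.24) in low RFI pigs, and 9 of these pigs were outside the range of the high RFI pigs, -2.38 to -0.98 (median -1.73). The difference was 0.53 ± 0.12 (1.44-fold, adjusted P = 0.0086). The spread was wider in low RFI pigs (SD 0.55) than in high RFI pigs (SD 0.29). Within slides the difference ran from -0.10 to 1.12, and low RFI was higher on 5 of 6 slides. By scan day it was 0.419, 0.998 and -0.097, the third day holding only the 1 slide on which low RFI was lower. Its partner in the lymph node, CCL19, and their receptor CCR7 had differences of 0.05 ± 0.15 (adjusted P = 0.96) and 0.06 ± 0.07 (adjusted P = 0.88).

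**Figure D2:**
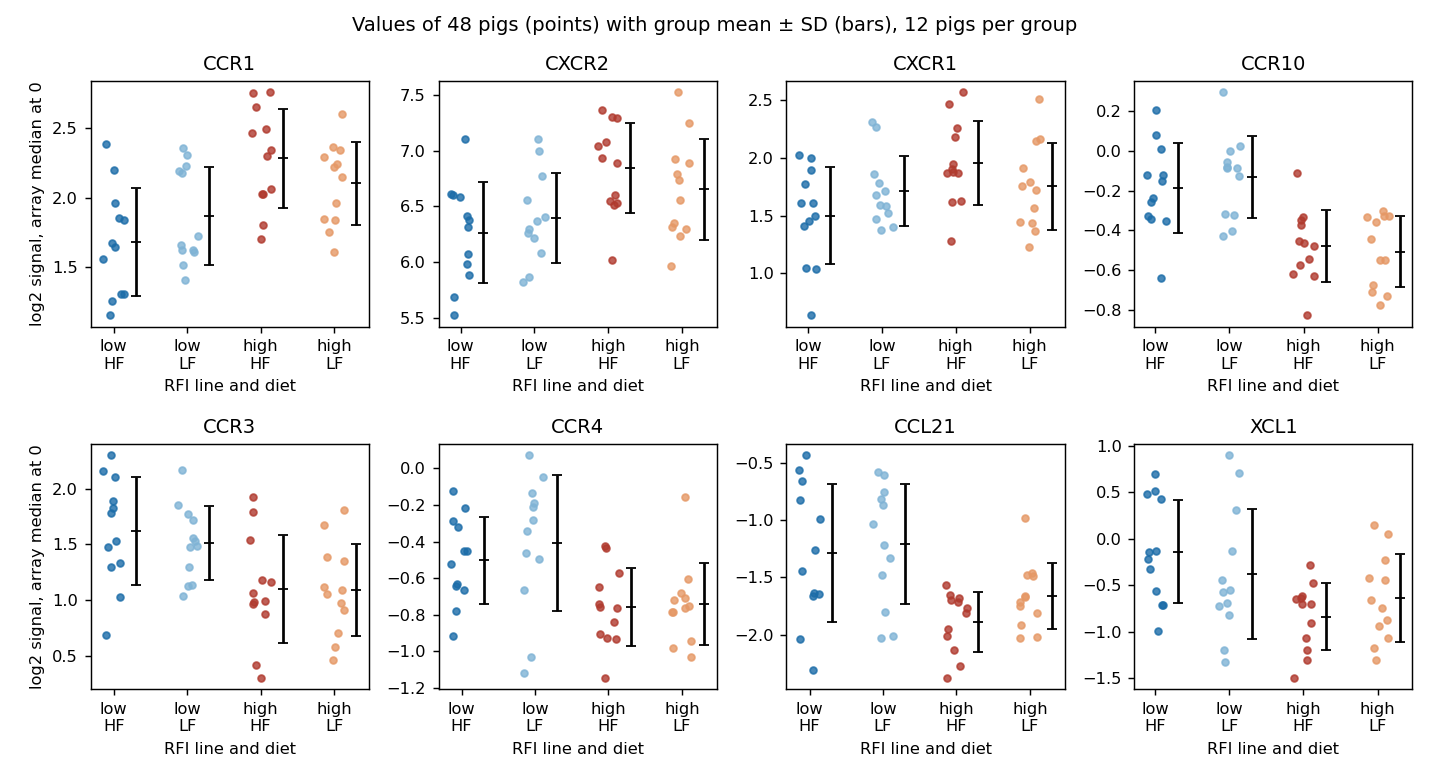
Values of 8 member genes (log2 signal with the array median at 0, y axis) in each of the 48 pigs (points) by RFI line and diet (x axis, 12 pigs per group), with the group mean ± SD as bars. For CCR10 23 of 24 low RFI pigs lie above the high RFI median, and for CCR1 and CXCR2 20 of 24 lie below it.

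CCR9 and XCL1 were just short of the threshold. CCR9, the receptor that sends T cells to the small intestine, was 0.32 to 1.27 (median 0.72) in low RFI pigs and 0.095 to 0.94 (median 0.50) in high RFI pigs. The difference was 0.23 ± 0.07 (adjusted P = 0.061), and it was 0.22 ± 0.07 (adjusted P = 0.082) on an unnamed spot with the same probe sequence. With the slide as a block the adjusted P of CCR9 was 0.0089. XCL1, a chemokine made by NK and CD8 T cells, was -1.32 to 0.90 (median -0.38) in low RFI pigs and -1.50 to 0.15 (median -0.70) in high RFI pigs. The mean of its 3 spots differed by 0.48 ± 0.15 (adjusted P = 0.065). By scan day this difference was 0.78, 0.035 and 0.46. Over the pigs XCL1 followed the mean of 7 T cell markers at r = 0.47 (rho = 0.42, adjusted permutation P = 0.0038, r = 0.41 without 2 pigs, -0.03 to 0.85 within slides). With the NK and cytotoxic mean r was 0.37 and rho 0.36, with adjusted permutation P of 0.049 and 0.070. This r was 0.29 without 2 pigs and 0.33 to 0.63 within slides. The line difference of all 7 T cell markers was above 0, as it was for 63.9% of all genes. Of the 7, 1 passed the test (1.65% of all genes did in this direction), namely LCK, a kinase of T cell receptor signaling (0.21 ± 0.06, adjusted P = 0.034).

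Neighboring receptor genes did not share a direction. On chromosome 13 of the RefSeq annotation of Sscrofa11.1, a cluster of these genes holds CCR9, FYCO1, CXCR6, XCR1, CCR1, CCR3, CCR2 and CCRL2 in this order. Along this order the line differences were 0.23, 0.04, 0.22, 0.01, -0.42, 0.47, -0.05 and -0.18. The adjacent genes CCR1 and CCR3 therefore had opposite signs, and both passed the test. CCR2, the monocyte receptor for CCL2, had an adjusted P of 0.92.

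The inflammatory ligands did not pass the test for line. CCL5 (RANTES), with 3 spots, had a gene difference of -0.15 ± 0.17 (adjusted P = 0.87). Its spots gave -0.39 ± 0.17 at the most, which had an adjusted P of 0.31. CCL4 and CCL3L1, macrophage inflammatory proteins, had differences of -0.07 ± 0.12 and -0.10 ± 0.12. CXCL10, an interferon-induced ligand of CXCR3, had a difference of 0.01 ± 0.26, and its values over all pigs ran from -0.39 to 4.29, the highest in low RFI LF replicate 11. This SE is the widest of the 35 genes.

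Genes of the chemokine pathway outside the members were counted from the same test, for which the share over all genes was 3.29%. Of 7 measured genes among 22 listed other chemokines, atypical receptors and related genes, only CMTM3, a chemokine-like factor, passed the test (0.37 ± 0.10, adjusted P = 0.026). Of 46 measured genes among 58 listed for signaling from the receptors, 1 was higher and 2 were lower, a count near that share from which nothing is read about the list. The G protein subunit GNG2 was higher in low RFI pigs by 0.29 ± 0.07 (adjusted P = 0.0078). The transcription factor STAT3 was lower by -0.21 ± 0.05 (adjusted P = 0.0076). The median line difference of these 46 genes was 0.01.

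No member was DE between the diets. With limma, 0 of 52 spots and 0 of 35 genes had an adjusted P under 0.05 (background 0%). At an unadjusted P under 0.05, 1 member gene remained by limma and 1 by the analysis of variance (background 1.94% of genes by limma). This gene was CCL27, a skin chemokine, which was higher in HF pigs by 0.19 ± 0.09 (P = 0.040 from limma before adjustment, adjusted P = 0.9995). In 15 of 24 HF pigs CCL27 was above the LF median. Its retained spot was dim, with a median signal of 72, against up to 69.5 for spots that were not retained. The next lowest P-values were those of CCL4 (-0.18 ± 0.12), CCL21 (-0.15 ± 0.12), CXCL12 (0.21 ± 0.19) and CXCR4 (-0.12 ± 0.12), none under 0.05. The SE of the diet difference was 0.06 to 0.26 over the 35 genes.

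The interaction of line and diet passed the test for no member either. With limma, 0 of 35 genes had an adjusted P under 0.05 (background 0%), 0 had an unadjusted P under 0.05 (background 2.33%), and the analysis of variance also gave 0 for both. The lowest unadjusted P-values of the limma interaction were those of CXCR1 (0.053), CCR1 (0.065) and CCR9 (0.086). For CCR1 the line difference was -0.60 ± 0.14 in HF pigs (adjusted P = 0.022) and -0.23 ± 0.14 in LF pigs (adjusted P = 0.78), and the difference between these was -0.37 ± 0.20. In CXCR1 it was -0.46 ± 0.15 in HF pigs and -0.04 ± 0.15 in LF pigs. For CCR10 the difference was 0.29 ± 0.08 in HF pigs (adjusted P = 0.072) and 0.37 ± 0.08 in LF pigs (adjusted P = 0.015). Within a diet, CCR1 was the only member gene past the test in HF pigs (background 0.904%) and CCR10 the only one in LF pigs (background 0.32%). The mean of CCR1 was 1.68 ± 0.39 (SD, n = 12) in low RFI HF pigs, 1.87 ± 0.35 in low RFI LF, 2.28 ± 0.36 in high RFI HF and 2.10 ± 0.30 in high RFI LF pigs. The SE of the interaction was 0.12 to 0.52 over the 35 genes, wider than for line or diet.

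**Figure D3:**
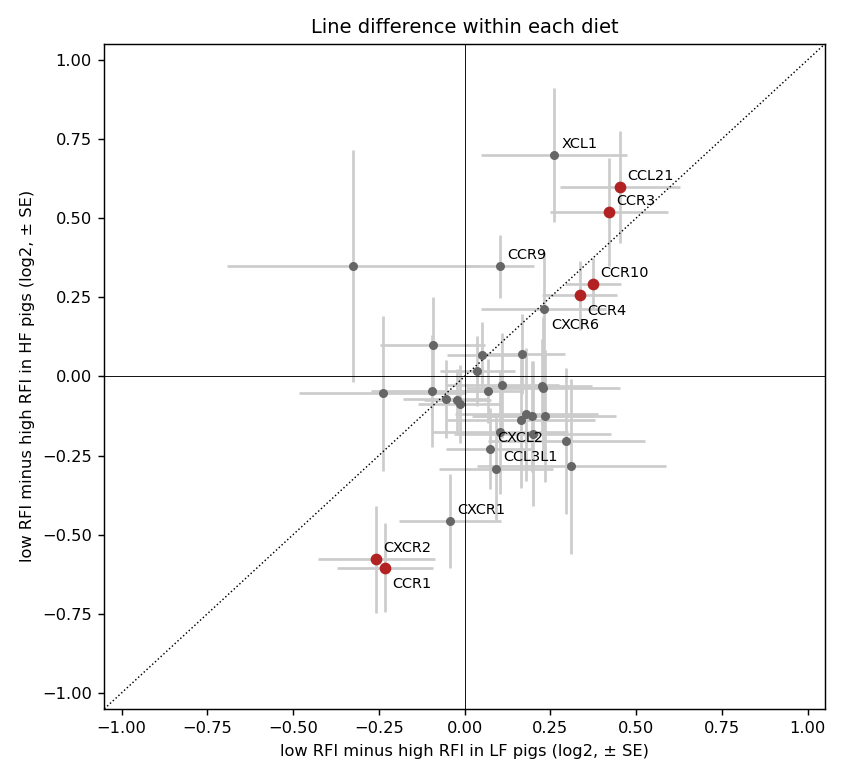
Line difference (low RFI minus high RFI, log2, ± SE) of 34 member genes in the 24 LF pigs (x axis) and in the 24 HF pigs (y axis), with the dotted line of equal difference; filled red points passed the test for line over both diets. CCR1 lies at -0.23 and -0.60, and CXCR1 at -0.04 and -0.46, below the line, but no interaction passed the test.

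Among pigs of 1 group the members fell into sets that rose and fell together. Correlations were computed over 51 of the spots, which give 1275 pairs, and 1254 of these are pairs of different genes. With group means subtracted, 215 of these 1254 pairs were correlated at an adjusted permutation P under 0.05 (148 positive and 67 negative), and 58 had r of at least 0.7. Spots linked by r of at least 0.7 formed 4 sets of more than 1 gene, a limit that was chosen after the values were seen. The sets are therefore a description.

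The first set holds 11 spots of CCL14, CCL17, CCL19, CCL20, CCL22, CCL25, CCL27, CXCL13, CXCR3 and XCR1, with r of 0.52 to 0.98 (median 0.81). Most of these are ligands of lymphoid tissue, thymus, gut or skin. The closest pair was CXCL13 and CXCR3, at r = 0.98. The mean of the set was 0.25 to 2.10 in low RFI pigs and 0.06 to 1.94 in high RFI pigs, with medians of 1.18 and 1.09. None of its spots passed the test for line, the differences being -0.04 to 0.12. For all 11 spots the interaction estimate was below 0 (-0.61 to -0.09), with 0.13 as the lowest unadjusted P of the limma interaction.

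This set ran in parallel with red cell markers. Its mean followed the mean of 6 red cell genes (HBB, ALAS2, SLC4A1, AHSP, EPB42 and HEMGN) at r = 0.93 over 48 pigs (rho = 0.91, permutation P = 1e-05, the smallest that the permutations can give, adjusted over 40 pairs 0.0001). Without 2 pigs r was 0.91, and within the 6 slides it was 0.93 to 0.98. With the T cell mean it was -0.68 (adjusted permutation P = 0.0001), and with the signal over background of the array it was -0.45 (adjusted permutation P = 0.0062). With the NK and cytotoxic mean r was -0.59 (rho = -0.57, adjusted permutation P = 0.00016, r = -0.51 without 2 pigs). With the mean of MS4A2 and HDC, the only measured markers of the eosinophil and basophil list, r was 0.47. For this pair rho was 0.51, the adjusted permutation P of r was 0.0062, and r was 0.50 without 2 pigs. With the neutrophil mean r was -0.37 and rho -0.34, with adjusted permutation P of 0.039 and 0.072, and r was -0.32 without 2 pigs. The line difference of all 6 red cell genes was above 0 (63.9% of all genes), and 1 of the 6 passed the test (1.65% of all genes), namely SLC4A1, the anion exchanger of the red cell membrane (0.26 ± 0.07, adjusted P = 0.040). The red cell mean was 4.14 to 5.91 in low RFI pigs and 3.66 to 5.81 in high RFI pigs. The part of red cell RNA in the values of these spots was not tested.

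The genes CCL20 and CCL25 have another spot outside the first set. The CCL20 spots had r = -0.03, and the CCL25 spots had r = 0.19. Likewise, the CCL3L1 spots had r = 0.11, where 1 belongs to the second set and the other to none. In all, 17 of 21 pairs of spots of the same gene were correlated at an adjusted permutation P under 0.05, and 14 had r of at least 0.7. The values of CCL20, CCL25 and CCL3L1 as gene means therefore join spots that did not follow each other.

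The second set joins CCL5 (3 spots), CCL4 (2 spots) and 1 CCL3L1 spot, which are inflammatory ligands that cytotoxic lymphocytes make. Its r was 0.56 to 0.98 (median 0.81). The mean of the set followed the mean of 7 NK and cytotoxic markers at r = 0.84 (rho = 0.87, adjusted permutation P = 0.0001, r = 0.84 without 2 pigs, 0.76 to 0.96 within slides). It also followed the T cell mean at r = 0.60 (rho = 0.60, adjusted permutation P = 0.0001, r = 0.53 without 2 pigs, 0.46 to 0.97 within slides). With the red cell mean r was -0.52 (rho = -0.52, adjusted permutation P = 0.0009, r = -0.50 without 2 pigs, -0.77 to -0.49 within slides). With the mean of MS4A2 and HDC r was -0.47 (rho = -0.54, adjusted permutation P = 0.0033, r = -0.49 without 2 pigs, -0.81 to -0.32 within slides). With the signal over background of the array r was 0.42 (adjusted permutation P = 0.016). The set mean was 1.53 to 3.79 in low RFI pigs and 2.24 to 4.06 in high RFI pigs. Of the 7 markers 3 were higher and 4 lower in low RFI pigs, with a median difference of -0.0026. The granzyme GZMH was the only one to pass the test (-0.73 ± 0.18, adjusted P = 0.011), while the receptor KLRK1 had 0.28 ± 0.12 (adjusted P = 0.29).

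The third set holds the CXCL10 and CCL8 spots, at r of 0.76 to 0.98. Between genes, the closest spots had r = 0.85, and 0.78 without 2 pigs. The set mean ranged over 3.97 on the log2 scale among pigs, the widest of the 4 sets. The fourth set is made of CCR1 (2 spots), CXCR1 and CXCR2, at r of 0.53 to 0.85. CXCR1 and CXCR2 had r = 0.85 (0.81 without 2 pigs), and all 4 spots were lower in low RFI pigs. Its mean was 3.25 to 4.82 (median 3.96) in low RFI pigs, and 3.73 to 5.05 (median 4.42) in high RFI pigs. It followed the neutrophil mean at r = 0.59 and the monocyte mean at r = 0.58 (rho of 0.56 and 0.66, adjusted permutation P of 0.00017 for both, 0.55 and 0.60 without 2 pigs). Within slides the range was -0.15 to 0.85 for neutrophils and 0.28 to 0.88 for monocytes. The r with the signal over background of the array was 0.42 (adjusted permutation P = 0.013), and the part of array signal in these values was not tested.

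**Figure D4:**
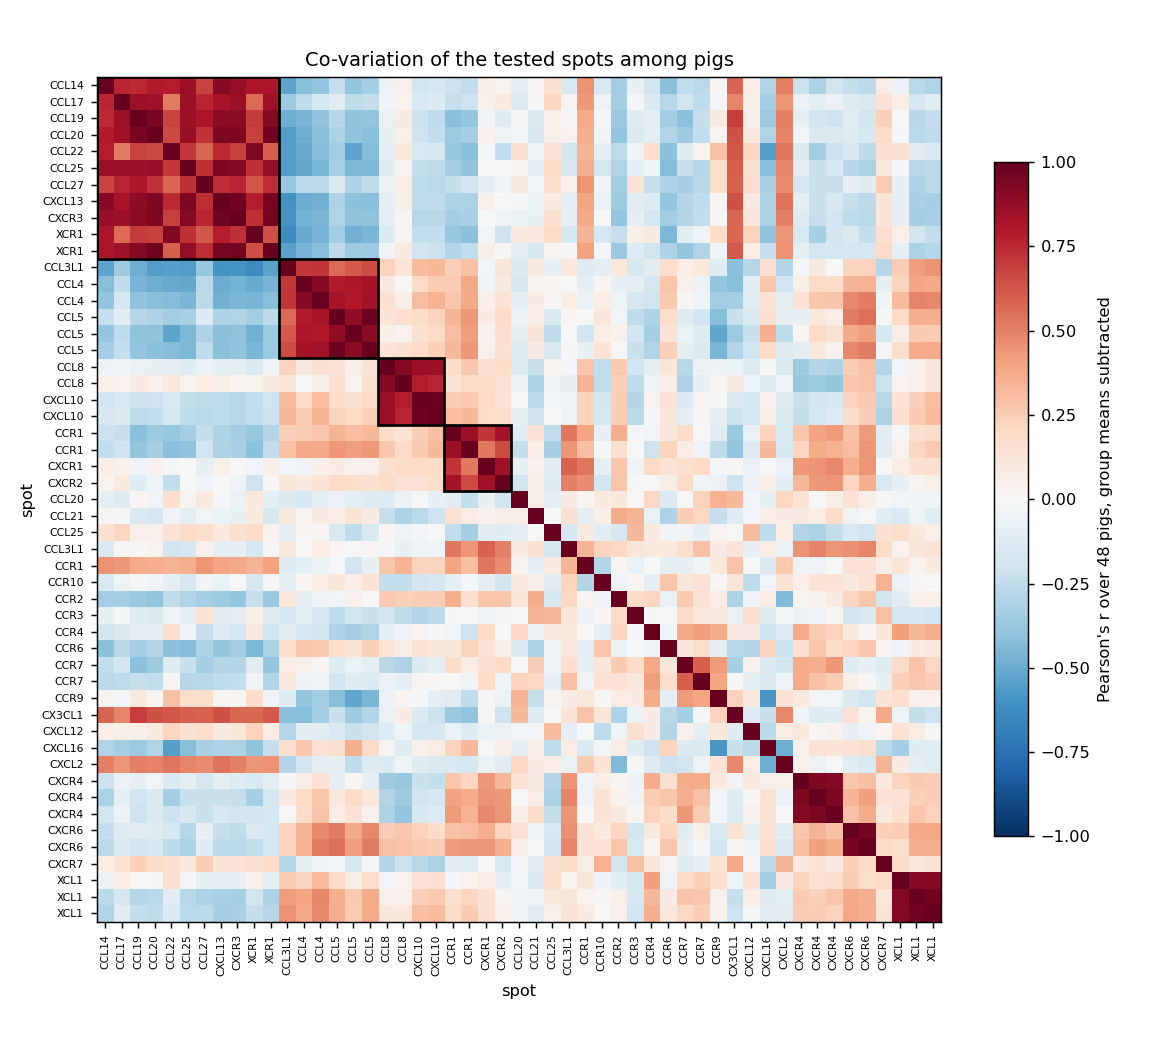
Pearson's r over 48 pigs, with group means subtracted, between 51 retained member spots (both axes, labelled by gene; red is positive and blue negative). Boxes mark the 4 sets joined by r of at least 0.7, the largest with 11 spots at r of 0.52 to 0.98.

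**Figure D5:**
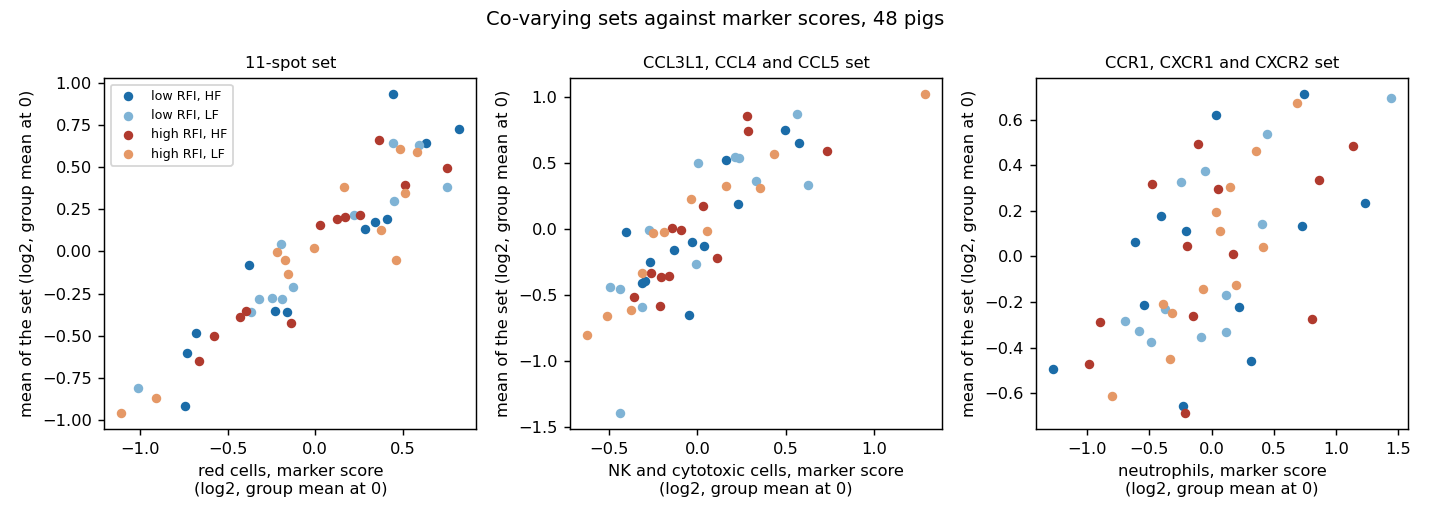
Mean of a co-varying set (y axis, log2) against the mean of the markers of a cell type (x axis, log2), both with group means at 0, for 48 pigs coloured by line and diet. The set of 11 spots followed the red cell markers at r = 0.93, the CCL5 set the NK and cytotoxic markers at r = 0.84, and the CCR1, CXCR1 and CXCR2 set the neutrophil markers at r = 0.59.

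Outside the sets, the line-associated members CCR10, CCR3 and CCL21 had a Pearson's r past an adjusted permutation P of 0.05 with none of the 8 marker means (128 pairs of 16 named genes and 8 means, of which 29 passed). By rank, CCR10 rose with the B cell mean (rho = 0.39, adjusted permutation P = 0.049, r = 0.31 with an adjusted P of 0.17). CCR4 was negatively correlated with the B cell mean, r = -0.41 (rho = -0.30, adjusted permutation P of r 0.045 and of rho 0.17, r = -0.40 without 2 pigs, -0.49 to 0.37 within slides). The line difference of the 5 measured B cell genes was below 0 (36.1% of all genes), and 3 passed the test (1.64% of all genes), among them MS4A1 (CD20, -0.36 ± 0.07, adjusted P = 0.0012).

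The 23 member spots that the authors did not retain are given by detection only. They were well above background on 1 to 46 of the 48 arrays, with median signals of 36 to 69.5. A group of 6 genes had no retained spot, namely CCL2, CCL16, CCL28, CXCL9, CXCL11 and CXCL14. The monocyte attractant CCL2 was well above background on 5 to 10 arrays by its 3 spots. CXCL9, an interferon-induced ligand of CXCR3, was so on 20 arrays, CXCL11 on 2, CCL16 on 2 and CCL28 on 1 by each of its spots. CXCL14 was so on 10 to 29 arrays by its 3 spots.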

How the data were processed

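Blood RNA was labelled with Cy3 and hybridized to 1-colour Agilent arrays, 1 per pig. Spot intensity was read from the deposited output of Feature Extraction 10.7.3.1. The authors also deposited a table of log2 values of spots kept after filtration on background, diameter, saturation and uniformity (R 3.0.2 per the submitters' processing notes). On 47 of 48 arrays the deposited log2 values equal, within 1e-06, the log2 median signal minus the array median, without background subtraction. The column of high RFI HF replicate 1 repeats 1 value after its first 24 entries and was rebuilt in this way. The file columns also hold other quality calls, of which well above background and saturation were used.

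Line, diet and interaction were fitted with limma 3.58.1 in R 4.3.3 to all 37113 spots and 10946 genes, with Benjamini-Hochberg adjustment over all of them. The study's own test, an analysis of variance, was an alternative, as were other background corrections, normalizations, filters, blocks and the study's criterion (P under 0.01 and fold change above 1.1). Genes were named where any P was under 0.01, where they had the 10 lowest line or the 5 lowest diet or interaction P-values, and CCR1 and CXCR2 in any case. Correlations used 100000 permutations within groups. Tables and plots were made in Python 3.11.15 (pandas 2.3.3, numpy 2.4.6, matplotlib 3.10.9 and scipy 1.17.1). The procedure was tested on simulated data. Of spots with a simulated difference of 0.5 on the log2 scale, 83% were recovered for line and 25% for the interaction. At a size of 1, 96% and 83% were recovered. Most interactions of 0.5 would therefore be missed. The number of arrays limits the precision. The labels do not state what a shared replicate number means, and the pigs were not treated as paired. The deviations of pigs with the same number were nevertheless correlated (median 0.20, over 0.1 in 44 of 72 pairs). The main fit and the permutations leave this shared variation out. The members, lists and tests were chosen with earlier results of these data known. Gene names are those of the scanner files, and the symbols of 39 of 41 member genes were found in the RefSeq table. Blood counts and qPCR were not used here. Some genes are not reported here by name, and 1 retained member spot was left out of the correlations and the figures.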

Additional observations from a re-analysis of the deposited data

Results flagged for a closer look

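Signal was also present in 7 member spots that lie outside the tested table, each well above background on more than 24 of 48 arrays. The counts were 46 arrays for a CXCL2 spot, 45 for a CCR10 spot, 45 for a CCL27 spot and 40 for a CXCR7 spot. A CXCL12 spot had 32 arrays, a CCL21 spot 30 and a CXCL14 spot 29. The CXCL12 spot ranged from a signal of 34.5 to 2968 among pigs, with a median of 63.5. The CCL21 spot was well above background on 19 of 24 low RFI arrays and on 11 of 24 high RFI arrays, a difference that was not tested. CXCL14 is the only one of these genes that has no retained spot.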

How the results depend on the processing

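When high RFI HF replicate 1 was taken from its column as deposited, 0 of 52 spots and 1 of 35 genes differed between lines, the gene being CCR1, and the median line difference of all spots moved from 0.02 to -0.10. Without that pig 7 spots and 6 genes differed, the same ones as with the rebuilt column. By the study's criterion 11 spots and 8 genes differed. Under the other alternatives for normalization, filter, test, prior, block and choice of spot, 5 to 8 spots and 5 to 7 genes differed between lines. Under all alternatives run, 0 members differed between diets or had an interaction. The replicate block gave 8 spots and 7 genes, CCR9 being added (adjusted P = 0.010). Same-number pigs correlated above 0.1 in 44 of 72 pairs, with a median of 0.20. That median was -0.0084 for other numbers on the same slide and -0.052 on other slides. The numbers thus go with shared variation that the main fit does not take into account. CCR1 passed under all 12 alternatives, at -0.55 to -0.40. CCR10, CCL21, CCR3 and CCR4 passed under all of them but the deposited column, and CXCR2 under all but that and the test over all non-control spots, which holds more genes. By spot, the analysis of variance left 1 of the 3 lower spots past the test, as did the test over all non-control spots. The CXCR2 spot then had an adjusted P of 0.056 and 0.061, and the CCR1 spot A_72_P232432 also 0.056 and 0.061. This CCR1 spot lost the call with background-corrected signals too (0.063 and 0.0503). XCL1 passed with normexp and quantile normalization (adjusted P = 0.049). No line difference of these genes, CXCR1 and CXCR6 reversed. Signal near background limits the third CCR1 spot and 1 spot each of XCR1 and CXCR7. The retained spots of CXCL2 (median signal 62.5), CX3CL1 (71.75) and CCL27 (72) and 1 spot of CCL20 (66.5) were also dim. Spots that were not retained had median signals up to 69.5.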
